A study of Saccharomyces cerevisiae with 8 samples.

Results

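The 5 genes SSA1 (YAL005C), SSA2 (YLL024C), HSC82 (YMR186W), HSP104 (YLL026W) and HSP60 (YLR259C) encode heat shock chaperones of Saccharomyces cerevisiae and were chosen by name from 1999 listed transcripts. Their chromatin was described from 600 bp upstream of the transcript start to the transcript end in 8 paired-end MNase-seq libraries. The libraries came from 2 strains with 2 cultures each, and every culture was sampled 3 hours and 0 hours after a change of medium from galactose to dextrose. In the H3 shutoff strain (DCB200.1, replicates 3 and 4) the histone H3 gene HHT1 is deleted and the remaining H3 gene, HHT2, is driven by the GAL1 promoter, which is turned off in dextrose. These cells arrest with large buds in dextrose, so that the loss of H3 and the arrest cannot be told apart at 3 hours. The wildtype strain (YEF473A, replicates B and C) kept its own H3 genes and went through the same change of medium. The sample labels give dextrose as the carbon source of all 8 libraries, and the galactose culture before it is taken from the study's methods.

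Chaperones bind unfolded proteins and help them to fold, and cells make more of them when heat or another stress unfolds proteins. In yeast, the transcription factor Hsf1 binds the promoters of many chaperone genes and keeps them active also without stress. Ssa1 and Ssa2 are closely related cytosolic Hsp70 proteins, Hsc82 is the constitutive Hsp90, Hsp104 takes proteins out of aggregates, and Hsp60 is the chaperonin of the mitochondrial matrix. MNase cuts the DNA between nucleosomes, and the midpoint of a protected fragment, here called the read center, marks the center of the nucleosome that protected it.

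In the coordinates of the sacCer1 build, SSA1 lay on the Crick strand of chromosome 1 from 139378 to 141497, and the dubious open reading frame YAL004W was listed on the other strand inside it. SSA2 lay on the Crick strand of chromosome 12 from 95452 to 97508, and HSP104 lay close to it on the Watson strand from 88582 to 91440. HSP60 lay on the Crick strand of chromosome 12 from 663213 to 665038, and HSC82 on the Watson strand of chromosome 13 from 632331 to 634564. The upstream stretches also hold the ends of neighboring transcripts in 3 of the 5 genes, namely POM33 (end 388 bp upstream of SSA2), ISA1 (313 bp upstream of HSP104) and RTP1 (330 bp upstream of HSC82), and the listed PAU17 and YMR187C transcripts overlap the ends of SSA2 and HSC82. All distances below are in bp from the listed start in the direction of transcription, and a negative distance is upstream. Over the transcripts of chromosomes 1, 12 and 13, the first nucleosome was centered 40 to 44 bp downstream of the listed start on average.

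Every library held 5000001 fragments, which gives a genome mean of 41.4 read centers per 100 bp. Because this number is fixed, a fall or rise below is relative to the rest of the same library. A loss shared by all nucleosomes cannot be seen in such counts. An unchanged or higher count thus does not mean that as many or more nucleosomes were present. The mean fragment length in the H3 shutoff libraries was 158.0 and 162.9 bp at 3 hours, against 157.2 and 152.9 bp at 0 hours. In the wildtype libraries it was 154.6 and 156.0 bp at 3 hours, against 150.6 and 146.0 bp at 0 hours. Fragments were thus longer at 3 hours than at 0 hours in all 4 cultures, and the part of fragment length in the results below was examined only by counting fragments of 140 to 160 bp alone.

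The libraries also fell into 2 sets that the strains and times do not explain, and this touches the Hsp70 genes. In H3 shutoff replicate 4 at 3 and 0 hours, wildtype C at 3 hours and wildtype B at 0 hours, some stretches held read centers where the other 4 libraries held few or none. Across the genome, 1580 of 223702 bins of 50 bp (0.706%) had at least 20 read centers in these 4 libraries together and at most 10% of that number in the other 4, while 16 bins had the opposite pattern. Such bins made up 6 of 49 in SSA1 (12.2%) and 4 of 46 in SSA2 (8.7%), and 0 of 65 in HSP104, 0 of 53 in HSC82 and 0 of 47 in HSP60. The bins, their threshold and the 2 sets were chosen after the data had been seen.

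In SSA1 these bins lay between 598 and 1347 bp, and together they held 4 and 83 read centers in H3 shutoff replicates 3 and 4 at 3 hours, against 2 and 62 at 0 hours. In wildtype B and C they held 3 and 48 read centers at 3 hours, against 140 and 7 at 0 hours. In SSA2 the bins ran without a gap from 1409 to 1608 bp and held 0 and 33 read centers in H3 shutoff replicates 3 and 4 at 3 hours, against 0 and 26 at 0 hours, and 0 and 33 in wildtype B and C at 3 hours, against 53 and 0 at 0 hours. The H3 shutoff libraries thus split by culture, whereas the wildtype libraries split across the letters of their labels. SSA1 and SSA2 are nearly identical along most of their coding sequence, so that fragments from their shared stretches cannot be placed in one gene with certainty, and counts there are uncertain in both genes. HSC82 is likewise closely related to HSP82, which was not analysed here, but it held 0 of the bins of the 2 library sets. No sequences were compared, so that the shared stretches of either pair were not located.

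**Figure D1:**
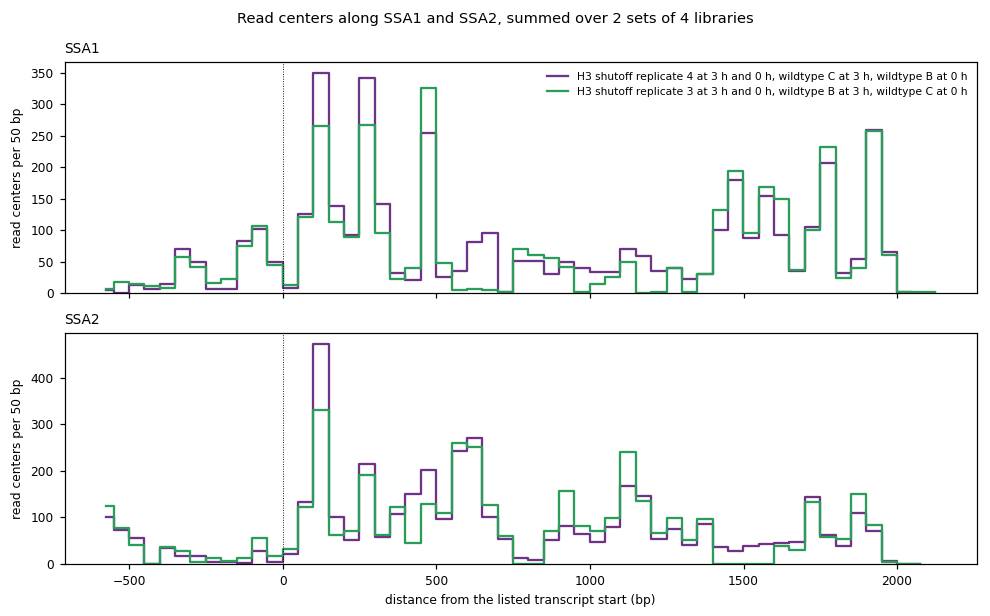
Read centers per 50 bp along SSA1 and SSA2 against the distance from the listed start, summed over the 4 libraries named in purple and the other 4 libraries in green. The sums ran close together over most of both genes, and the green line dropped to 0 in SSA2 between 1409 and 1608 bp while the purple line did not.

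To compare the nucleosomes between libraries, read centers were counted within 50 bp of each nucleosome center called in the 8 libraries pooled. The genome held 62426 such windows, of which 60318 had at least 80 read centers in all libraries together and entered the quasi-likelihood test of edgeR. The 5 chaperone genes held 70 windows and 67 were tested. The remaining 3, at -493 bp of SSA1, -190 bp of HSC82 and 2858 bp of HSP104, had too few read centers.

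In the H3 shutoff strain, read centers fell between 0 and 3 hours in 14 of the 67 tested chaperone windows (Benjamini-Hochberg adjusted p under 0.05), against 21.9% of all windows tested. The test called 0 rises, against 5.14% of all windows, and 2 windows were higher at an unadjusted p under 0.05. With TMM scaling, which moves the median change of all windows from -0.35 to -0.02 on the log2 scale, 7 chaperone windows fell and 5 rose (HSC82 at -359 bp, HSP104 at 1099, 2151 and 2671 bp, and SSA1 at 1477 bp), against 7.47% and 10.5% of all windows. DESeq2 with its own size factors called 1 fall and 0 rises, against 0.3% and 1.62% of all windows. The median change of the 67 windows was -0.44 on the log2 scale. The windows are fixed, so that read centers that move or spread out of a window count as a fall. In the H3 shutoff strain the median change was -0.35 over all windows and -0.05 over all bodies. The part of position and spread in the falls was not tested. The number of calls was 6 without H3 shutoff replicate 3, 3 without replicate 4, 23 without wildtype B and 24 without wildtype C, and the same fits called 10.1%, 3.84%, 35.1% and 35.1% of all windows.

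In wildtype, 6 of the 67 windows fell, against 1.12% of all windows, and 4 of these were in SSA2. The test called 0 rises, against 0.456% of all windows, while 4 windows were higher at an unadjusted p under 0.05. TMM scaling gave 7 falls and 0 rises, against 1.27% and 0.423% of all windows, and DESeq2 gave 2 falls and 0 rises, against 0.063% and 0.00995%. The median change was -0.3 on the log2 scale in the chaperone windows and 0.06 in all windows. Leaving out wildtype C gave 11 falls and 3 rises, against 5.29% and 4.45% of all windows in the same fit.

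The change in the H3 shutoff strain minus that in wildtype was below 0 in 8 windows and above 0 in 3 (adjusted p under 0.05, edgeR), against 16.2% and 4.62% of all windows. Under TMM scaling the split was 5 below and 9 above 0, against 5.87% and 8.95% of all windows, and DESeq2 called 1 window below 0. Without H3 shutoff replicate 3 this comparison called 7 windows, against 11.5% of all windows in the same fit, and without replicate 4 it called 4, against 4.99%.

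**Figure D2:**
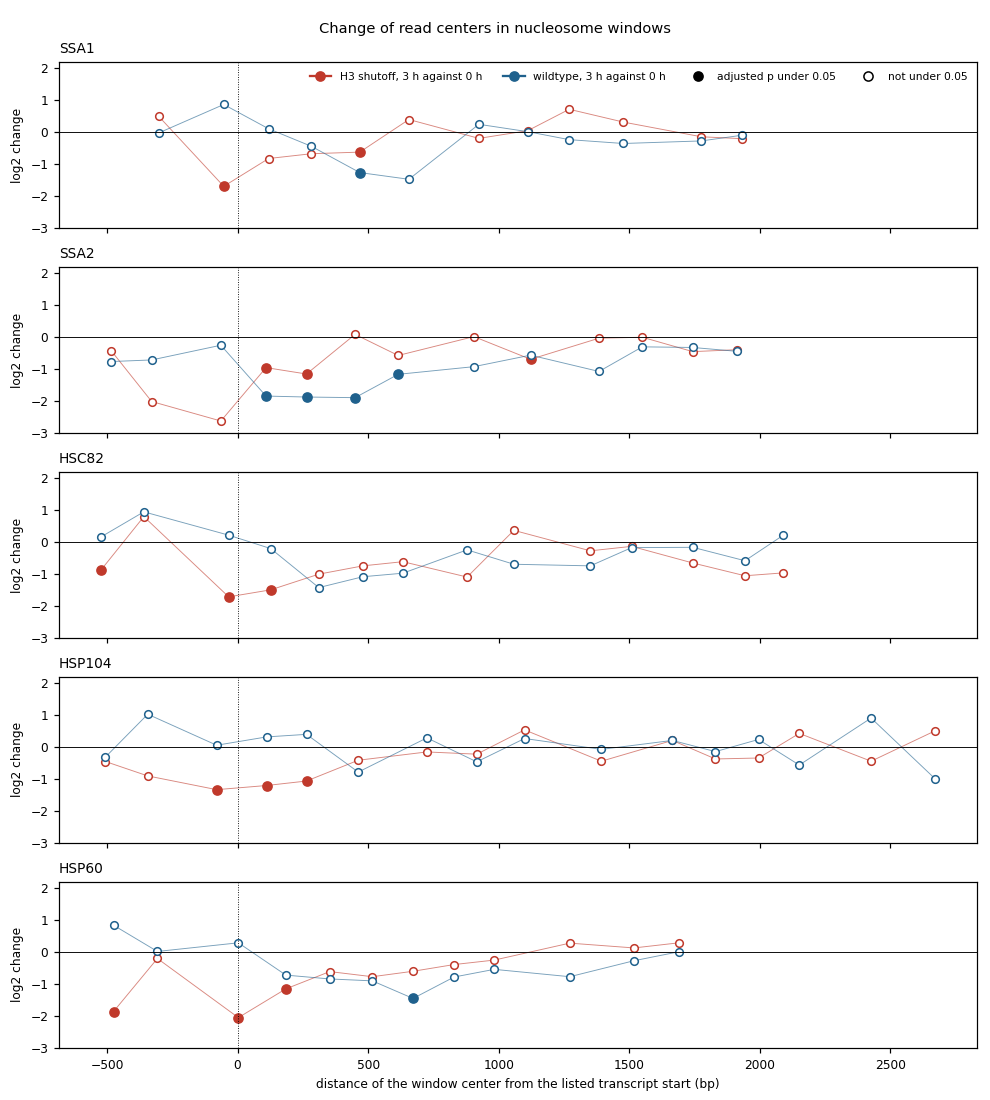
Log2 change of read centers from 0 to 3 hours in each tested window against its distance from the listed start, in the H3 shutoff strain (red) and in wildtype (blue), with filled circles for an adjusted p under 0.05 (edgeR). The called falls of the H3 shutoff strain crowd around the transcript starts, and 4 of the 6 called falls of wildtype lie in the first part of SSA2; the values are without scaling, and under TMM scaling the red circles sit higher by about the shift of the all-window median.

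The calls were not spread evenly along the genes. Of the 13 windows centered between -100 and 300 bp, a stretch chosen after the changes had been seen, 10 fell in the H3 shutoff strain and all 13 were below 0 both without scaling and with TMM scaling, which called 6 falls. Over all listed starts, which lie on chromosomes 1 and 11 to 14, 42.4% of 3064 windows in this stretch fell and 2.64% rose. The median change of the 13 chaperone windows was -1.20 on the log2 scale, against -0.69 for the 3064. In wildtype 2 of the 13 fell, both in SSA2, against 0.914% that fell and 0.457% that rose over all starts. The difference between the strains was called below 0 in 5 of the 13 and above 0 in 0 (edgeR without scaling), against 31.5% and 2.19% over all starts, and TMM scaling gave 4 calls below and 1 above. Called or not, it was below 0 in 11 of the 13, the exceptions being the SSA2 windows at 109 and 264 bp (0.89 and 0.73). Of the 54 windows elsewhere, 4 fell in the H3 shutoff strain and 4 in wildtype, against 21.9% and 1.12% of all windows. With TMM scaling 1 fell and 5 rose there in the H3 shutoff strain, against 7.47% and 10.5% of all windows. The difference was then called below 0 in 1 and above 0 in 8, against 5.87% and 8.95%. A share over all starts was not counted with TMM scaling.

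**Figure D3:**
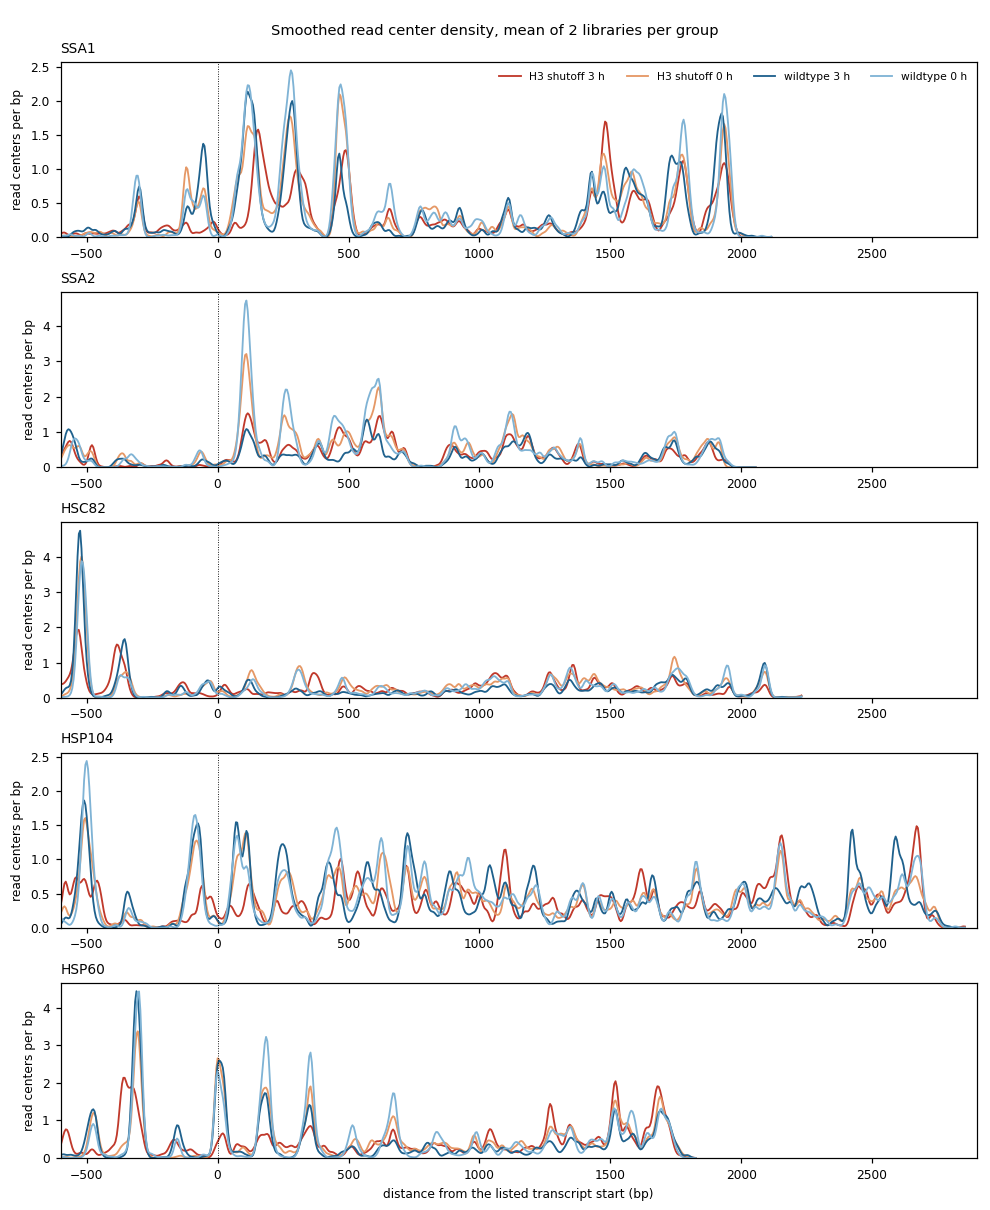
Read center density, smoothed with an SD of 10 bp, against the distance from the listed start for each gene, with 1 line for the mean of the 2 libraries of a group. The first peaks are lower in the H3 shutoff strain at 3 hours (red) than at 0 hours (orange), and in HSP60 and HSC82 the red peaks upstream of the start lie at other distances.

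SSA1, an Hsp70 gene, had its first nucleosome of the body at about 119 bp and a smaller one over the start. In the window at -53 bp, H3 shutoff replicates 3 and 4 had 15 and 10 read centers at 3 hours, against 41 and 40 at 0 hours. Wildtype B and C had 57 and 73 at 3 hours, against 32 and 39 at 0 hours. Both H3 shutoff libraries at 3 hours were thus below all other libraries, while the 3-hour wildtype libraries were the highest. The change was -1.69 ± 0.37 on the log2 scale in the H3 shutoff strain (SE, n = 2 cultures, edgeR adjusted p = 0.00401), and 0.87 ± 0.30 in wildtype (adjusted p = 0.135). The difference of these changes was -2.56 ± 0.48 (adjusted p = 0.00348) and stayed called in all 10 alternatives that gave an adjusted p. DESeq2 gave none for this difference, so that it was not called there. The fall in the H3 shutoff strain was not called without replicate 4 (-1.44, edgeR adjusted p = 0.0923).

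Across the 300 bp upstream of the SSA1 start, H3 shutoff replicates 3 and 4 had 51 and 42 read centers at 3 hours, against 83 and 85 at 0 hours. Wildtype B and C had 102 and 102 at 3 hours, against 66 and 68 at 0 hours. The strains moved apart, with the 0-hour values between those of 3-hour wildtype and 3-hour H3 shutoff cells, and the window at -53 bp is part of this stretch. The promoter fell by 0.85 on the log2 scale in the H3 shutoff strain (SE 0.30, edgeR adjusted p = 0.0251), and its difference from wildtype was -1.46 ± 0.41 (adjusted p = 0.00653). Without replicate 4 neither was called (-0.70, edgeR adjusted p = 0.59, and -1.31, adjusted p = 0.213), and without replicate 3 the fall was not (-1.01, adjusted p = 0.171).

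The second SSA1 window of the largest changes lay at 468 bp and had 91 and 52 read centers in H3 shutoff replicates 3 and 4 at 3 hours, against 142 and 78 at 0 hours. Wildtype B and C had 55 and 47 there at 3 hours, against 120 and 125 at 0 hours. The H3 shutoff groups overlapped and the wildtype groups did not. The change was -0.62 ± 0.21 in the H3 shutoff strain (edgeR adjusted p = 0.0356) and -1.26 ± 0.21 in wildtype (adjusted p = 0.0102). The H3 shutoff value was lost in 7 of 11 alternatives, among them TMM scaling (-0.29, adjusted p = 0.405), the fits without replicate 3 (-0.58, adjusted p = 0.255) and without replicate 4 (-0.64, adjusted p = 0.24). The whole SSA1 body had 725 and 784 read centers in the H3 shutoff strain at 3 hours, against 893 and 901 at 0 hours, and did not pass the test (-0.25 ± 0.11, edgeR adjusted p = 0.157).

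In the authors' calls, the nucleosome at the beginning of SSA1 was centered at 157 and 150 bp in H3 shutoff replicates 3 and 4 at 3 hours, against 116 and 111 bp at 0 hours. In wildtype B and C it was centered at 129 and 110 bp at 3 hours, against 121 and 106 bp at 0 hours. Both H3 shutoff calls at 3 hours thus lay farther into the gene than the other 6, and within each H3 shutoff culture the read centers of the pair differed in position (Bonferroni-corrected p of 2.21e-19 and 3.41e-20, which cover counting error only).

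SSA2, the other Hsp70 gene, was the member with the clearest change in wildtype. At 109 bp, H3 shutoff replicates 3 and 4 had 68 and 109 read centers at 3 hours, against 159 and 178 at 0 hours. Wildtype B and C had 61 and 62 at 3 hours, against 277 and 173 at 0 hours. The 3-hour values were below the 0-hour values in both strains with no overlap. The change was -1.84 ± 0.27 in wildtype (edgeR adjusted p = 0.00526), called in all 11 alternatives, and -0.95 ± 0.26 in the H3 shutoff strain (adjusted p = 0.0134). The H3 shutoff value was not called with TMM scaling (-0.62, adjusted p = 0.166), without replicate 3 (-0.71, adjusted p = 0.224) or without replicate 4 (-1.22, adjusted p = 0.0614).

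The next SSA2 window, at 264 bp, had 43 and 49 read centers in H3 shutoff replicates 3 and 4 at 3 hours, against 102 and 102 at 0 hours. It had 21 and 43 in wildtype B and C at 3 hours, against 104 and 127 at 0 hours. The change was -1.15 ± 0.23 in the H3 shutoff strain (edgeR adjusted p = 0.00244) and -1.87 ± 0.24 in wildtype (adjusted p = 0.00184). The wildtype value was called in all 11 alternatives, and the H3 shutoff value in 9, the fit without replicate 3 being 1 of the 2 that lost it (-1.06, adjusted p = 0.0557). The difference between the strains was not called in either window (0.89 ± 0.37, edgeR adjusted p = 0.0961, and 0.73 ± 0.33, adjusted p = 0.128).

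At 450 bp of SSA2 the strains parted, since H3 shutoff replicates 3 and 4 had 54 and 90 read centers at 3 hours, against 57 and 77 at 0 hours, and wildtype B and C had 17 and 35 at 3 hours, against 158 and 52 at 0 hours. The difference of the changes was 1.98 ± 0.52 (edgeR adjusted p = 0.0158). Without wildtype B, whose 0-hour library had the highest count, it was 0.66 (adjusted p = 0.293), and without H3 shutoff replicate 4 it was 1.80 (adjusted p = 0.0625). The 2 library sets also differed there, with 150 read centers between 400 and 449 bp in the 4 libraries that include wildtype B at 0 hours, against 45 in the other 4, and the part of this in the difference was not tested.

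Over the whole body, SSA2 had 817 and 861 read centers in the H3 shutoff strain at 3 hours, against 1063 and 1110 at 0 hours, and 601 and 720 in wildtype at 3 hours, against 1170 and 1221 at 0 hours. Both 3-hour groups were below both 0-hour groups, and the wildtype 3-hour libraries were the lowest. The body fell by 0.86 on the log2 scale in wildtype (SE 0.08, edgeR adjusted p = 0.00235) and by 0.37 in the H3 shutoff strain (SE 0.08, adjusted p = 0.0293), with a difference of 0.49 ± 0.12 (adjusted p = 0.0285). With the stretches of the 2 library sets left out, these values were -0.86, -0.38 and 0.48. Without wildtype B the wildtype change was -0.76 and the difference 0.39, and without H3 shutoff replicate 4 the difference was 0.48. The H3 shutoff change was -0.37 without replicate 3 and -0.38 without replicate 4. None of the values just given was called in its fit with a culture left out. Over all 11 alternatives, the wildtype fall was called in 10, the difference in 7 and the H3 shutoff fall in 6. So few cultures remain in the fits with a culture left out that a lost call there says little about the gene.

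The authors' calls of SSA2 showed a different arrangement at 3 hours in wildtype. At 0 hours, wildtype B and C had calls at 266 and 445 bp and at 260 and 437 bp. At 3 hours each of these pairs was replaced by a single call, at 389 bp in B and 374 bp in C. H3 shutoff replicate 3 did the same, with a call at 380 bp at 3 hours against 268 and 437 bp at 0 hours, whereas replicate 4 kept 2 calls, at 275 and 453 bp at 3 hours against 260 and 445 bp at 0 hours. The call after these was centered at 572 and 567 bp in wildtype B and C at 3 hours, against 614 and 589 bp at 0 hours. The promoter of SSA2 held few read centers, with 24 and 10 in H3 shutoff cells at 3 hours against 26 and 25 at 0 hours, and 18 and 18 in wildtype at 3 hours against 10 and 41 at 0 hours.

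HSC82, the constitutive Hsp90 gene, had the lowest density of the 5 bodies, with 25.7 and 20.9 read centers per 100 bp in the H3 shutoff strain at 3 hours, against 26.3 and 29.4 at 0 hours, and 17.2 and 21.4 in wildtype at 3 hours, against 21.4 and 27.9 at 0 hours. The median of all listed bodies lay between 41.8 and 43.8 read centers per 100 bp in the 8 libraries. Upstream of the start, the bin from -300 to -201 bp had 0 to 3 read centers in every library, while a strong nucleosome stood at -524 bp, inside the end of RTP1.

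At -34 bp of HSC82, H3 shutoff replicates 3 and 4 had 9 and 8 read centers at 3 hours, against 23 and 34 at 0 hours, and wildtype B and C had 24 and 35 at 3 hours, against 14 and 41 at 0 hours. At 127 bp, H3 shutoff replicates 3 and 4 had 19 and 11 read centers at 3 hours, against 42 and 41 at 0 hours, and wildtype B and C had 17 and 33 at 3 hours, against 24 and 32 at 0 hours. In both windows the H3 shutoff groups did not overlap and the wildtype groups did. The changes in the H3 shutoff strain were -1.71 ± 0.55 at -34 bp (edgeR adjusted p = 0.0306) and -1.49 ± 0.45 at 127 bp (adjusted p = 0.0233). Neither differed from wildtype by the test (-1.93 ± 0.74, edgeR adjusted p = 0.073, and -1.28 ± 0.63, adjusted p = 0.152). Both were lost with TMM scaling (-1.38, edgeR adjusted p = 0.0752, and -1.16, adjusted p = 0.0658). They were also lost without replicate 3 (-2.07 and -1.89) or replicate 4 (-1.34 and -1.14). On fragments of 140 to 160 bp the fall at -34 bp was lost (-1.53, edgeR adjusted p = 0.131) and that at 127 bp was kept (-2.38, adjusted p = 0.0173).

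The calls around the HSC82 start lay at other positions after 3 hours in the H3 shutoff strain. At 3 hours, replicates 3 and 4 had calls at 23 and 34 bp, against -36 and -25 bp at 0 hours. Farther in, a call lay at 381 and 367 bp at 3 hours, against 310 and 319 bp at 0 hours, and both of these pairs were of altered position in both cultures. Wildtype C had calls at -39 and 300 bp at 3 hours, against -30 and 303 bp at 0 hours, and wildtype B had calls at -138 and 320 bp at 3 hours, against -120 and 317 bp at 0 hours. The bin from 0 to 99 bp had 25 and 16 read centers in the H3 shutoff strain at 3 hours, against 10 and 10 at 0 hours. In wildtype B and C this bin had 11 and 21 at 3 hours, against 6 and 8 at 0 hours. The promoter as a whole did not differ, with 29 and 41 read centers in the H3 shutoff strain at 3 hours, against 30 and 39 at 0 hours (0.01 ± 0.48, edgeR adjusted p = 0.986).

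HSP104, the disaggregase gene, fell at its 3 windows around the start in the H3 shutoff strain. At -80 bp, H3 shutoff replicates 3 and 4 had 27 and 36 read centers at 3 hours, against 87 and 72 at 0 hours, and wildtype B and C had 93 and 92 at 3 hours, against 87 and 90 at 0 hours. At 111 bp, H3 shutoff replicates 3 and 4 had 41 and 37 read centers at 3 hours, against 78 and 103 at 0 hours, and wildtype B and C had 96 and 98 at 3 hours, against 86 and 70 at 0 hours. The H3 shutoff libraries at 3 hours were the lowest of the 8 in both windows, and the other 6 had 72 to 93 and 70 to 103 read centers. The changes in the H3 shutoff strain were -1.33 ± 0.24 (edgeR adjusted p = 0.00166) and -1.20 ± 0.23 (adjusted p = 0.00218), and the differences from wildtype were -1.39 ± 0.32 (adjusted p = 0.00841) and -1.52 ± 0.31 (adjusted p = 0.00528). The difference at -80 bp was not called with TMM scaling (-1.0, edgeR adjusted p = 0.0557). On fragments of 140 to 160 bp neither value at 111 bp was called (-0.92, edgeR adjusted p = 0.0548, and -1.21 for the difference, adjusted p = 0.0655). Both values at -80 bp were called there. DESeq2 called none of the changes and differences in these windows (adjusted p of 0.272 to 0.436). The changes at -80 bp were not called without replicate 3 (-1.0, edgeR adjusted p = 0.0721, and -1.06 for the difference, adjusted p = 0.0918), and those at 111 bp were not called without replicate 4 (-0.93, adjusted p = 0.121, and -1.24 for the difference, adjusted p = 0.0723).

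The HSP104 promoter of 300 bp had 50 and 48 read centers in H3 shutoff replicates 3 and 4 at 3 hours, against 103 and 87 at 0 hours, and 105 and 99 in wildtype B and C at 3 hours, against 91 and 99 at 0 hours. It fell by 0.95 on the log2 scale in the H3 shutoff strain (SE 0.27, edgeR adjusted p = 0.0043), and the difference from wildtype was -1.05 ± 0.36 (adjusted p = 0.0308). The difference was lost with TMM scaling (-0.76, adjusted p = 0.139) and without any of H3 shutoff replicate 3 (-0.96, adjusted p = 0.215), replicate 4 (-1.14, adjusted p = 0.213) and wildtype B (-0.95, adjusted p = 0.14), and the fall was lost without replicate 3 (-0.86, adjusted p = 0.217) or 4 (-1.04, adjusted p = 0.167).

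Farther into HSP104 the called differences between the strains went both ways, above 0 at 2151 and 2671 bp and below 0 at 2426 bp. At 2671 bp, near the end of the transcript, H3 shutoff replicates 3 and 4 had 74 and 81 read centers at 3 hours, against 53 and 56 at 0 hours, and wildtype B and C had 40 and 28 at 3 hours, against 65 and 70 at 0 hours. The groups did not overlap in either strain. Neither change was called by itself (0.51 ± 0.23 in the H3 shutoff strain, edgeR adjusted p = 0.108, and -0.99 ± 0.25 in wildtype, adjusted p = 0.0537), and with TMM scaling both were (0.84, adjusted p = 0.0166, and -1.06, adjusted p = 0.0394). Their difference was 1.5 ± 0.34 (edgeR adjusted p = 0.00775). Without H3 shutoff replicate 4 it was 1.48 (adjusted p = 0.0564). The whole body of HSP104 had 1095 and 1021 read centers in H3 shutoff cells at 3 hours, against 1104 and 1266 at 0 hours, and did not pass the test (-0.16 ± 0.09, edgeR adjusted p = 0.217).

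HSP60, the gene of the mitochondrial chaperonin, had the largest called fall of the 5 genes. At 3 bp, H3 shutoff replicates 3 and 4 had 33 and 25 read centers at 3 hours, against 136 and 105 at 0 hours. Wildtype B and C had 136 and 112 at 3 hours, against 109 and 93 at 0 hours. The other 6 libraries thus had 93 to 136 read centers, and none came near the H3 shutoff values at 3 hours. The change was -2.05 ± 0.23 on the log2 scale in the H3 shutoff strain (edgeR adjusted p = 0.000332) and 0.29 ± 0.19 in wildtype (adjusted p = 0.412), and their difference was -2.35 ± 0.30 (adjusted p = 0.00205). Both the change and the difference stayed called in all 11 alternatives.

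At -475 bp of HSP60, H3 shutoff replicates 3 and 4 had 18 and 11 read centers at 3 hours, against 47 and 59 at 0 hours, and wildtype B and C had 63 and 62 at 3 hours, against 23 and 49 at 0 hours. The change in the H3 shutoff strain was -1.86 ± 0.38 (edgeR adjusted p = 0.00297) and the difference from wildtype was -2.70 ± 0.50 (adjusted p = 0.00356). The change was not called without replicate 4 (-1.38, adjusted p = 0.104), and neither value was called on fragments of 140 to 160 bp (-0.99, adjusted p = 0.221, and -1.78 for the difference, adjusted p = 0.111).

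**Figure D4:**
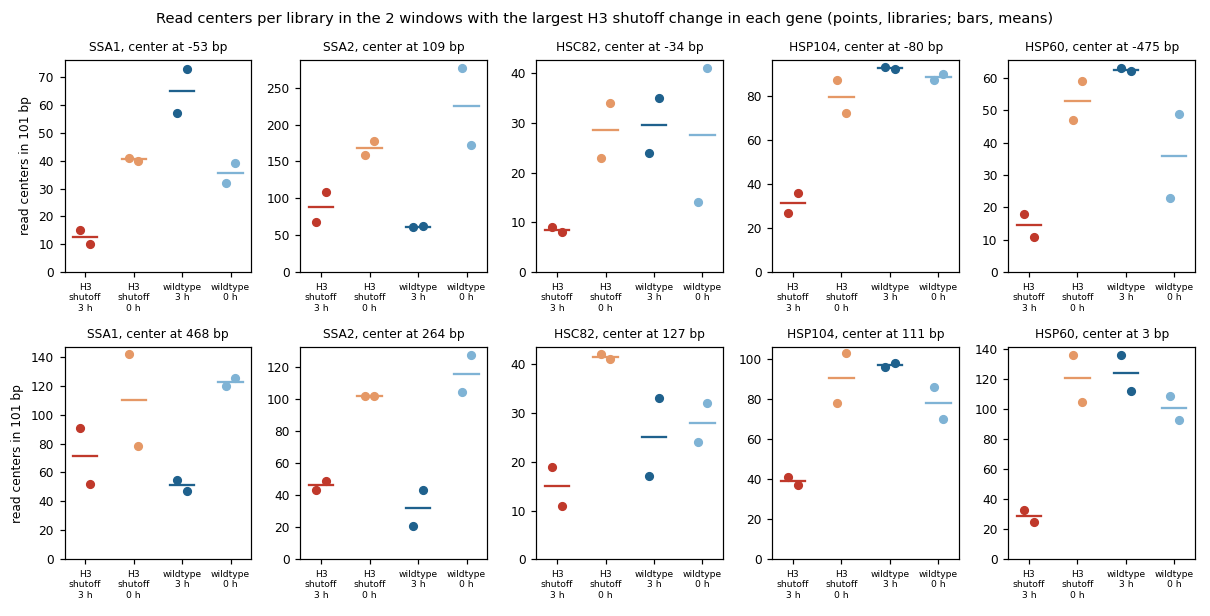
Read centers within 50 bp of the window center in each library, for the 2 windows per gene with the largest absolute change in the H3 shutoff strain among those called. In the HSP60 window at 3 bp, the H3 shutoff libraries at 3 hours had 33 and 25 read centers and the other 6 had 93 to 136, whereas in both SSA2 windows wildtype was also lower at 3 hours.

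The fall at -475 bp went with another set of positions upstream of HSP60, and the bin next to it rose. From -500 to -401 bp, H3 shutoff replicates 3 and 4 had 20 and 13 read centers at 3 hours, against 46 and 57 at 0 hours. From -600 to -501 bp they had 32 and 37 at 3 hours, against 4 and 4 at 0 hours. Wildtype B and C had 50 and 60 in the first bin at 3 hours, against 24 and 49 at 0 hours. In the second bin they had 24 and 3, against 1 and 1. In H3 shutoff replicates 3 and 4, the calls at 3 hours lay at -581 and -358 bp and at -579 and -359 bp, against -474 and -308 bp and -473 and -307 bp at 0 hours. A further call at -160 and -172 bp, with 37 and 35 read centers, was present at 3 hours, where the same libraries had none at 0 hours. Wildtype C also had a call there, at -150 bp at 3 hours and -151 bp at 0 hours, with 10 and 3 read centers. Wildtype B had none there at either time, although it had 59 read centers from -200 to -101 bp at 3 hours and 27 at 0 hours. A missing call there thus does not mean missing read centers. In wildtype B and C the strong call lay at -310 and -311 bp at 3 hours, against -303 and -303 bp at 0 hours. The strong call of both H3 shutoff cultures at 3 hours thus sat farther upstream than in the other 6 libraries. The bin from -200 to -101 bp had 31 and 27 read centers in the H3 shutoff strain at 3 hours, against 3 and 1 at 0 hours, and 59 and 10 in wildtype B and C at 3 hours, against 27 and 3 at 0 hours, so that the wildtype cultures differed from each other at both times.

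The body of HSP60 had 792 and 842 read centers in the H3 shutoff strain at 3 hours, against 918 and 958 at 0 hours, and 644 and 724 in wildtype at 3 hours, against 885 and 960 at 0 hours. It fell by 0.43 on the log2 scale in wildtype (SE 0.08, edgeR adjusted p = 0.0333), a call lost without wildtype B (-0.41, adjusted p = 0.404) or C (-0.46, adjusted p = 0.0514). The change in the H3 shutoff strain did not pass the test (-0.20 ± 0.08, edgeR adjusted p = 0.119), and neither did the promoter (-0.49 ± 0.22, adjusted p = 0.106). At 672 bp, a window named after its values had been seen, wildtype B and C had 29 and 34 read centers at 3 hours, against 81 and 92 at 0 hours (-1.45 ± 0.24, edgeR adjusted p = 0.00931).

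**Figure D5:**
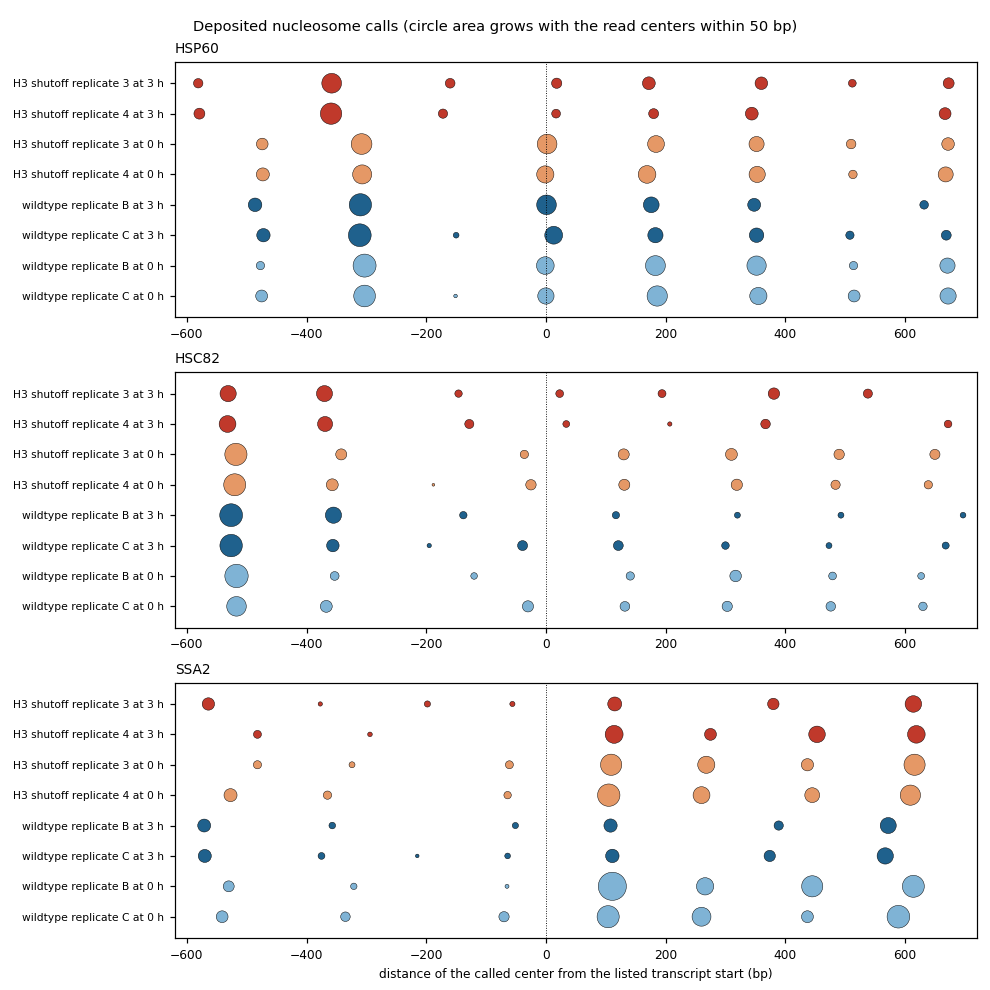
Centers of the nucleosomes called by the authors in each library, from 600 bp upstream to 700 bp downstream of the listed starts of HSP60, HSC82 and SSA2, with circle areas that grow with the read centers within 50 bp. Upstream of HSP60 the calls near -308 bp lie near -358 bp in both H3 shutoff libraries at 3 hours, and in SSA2 the calls near 260 and 437 bp give way to 1 call near 380 bp in both wildtype libraries and 1 H3 shutoff library at 3 hours.

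Read by region, 2 of the 5 promoters fell in the H3 shutoff strain (SSA1 and HSP104), against 10.9% of all 1594 promoters tested, and 0 rose, against 7.84%. At an unadjusted p under 0.05 (edgeR) 0 were higher as well, and DESeq2 called 0 of the 5, against 46 of all 1594. The median change of the 5 promoters was -0.66 in the H3 shutoff strain, against -0.07 for all promoters. In wildtype edgeR called 0 of the 5 promoters, against 1.44% that fell and 4.64% that rose, and 1 of the 5 was higher at an unadjusted p under 0.05. The same 2 promoters were below wildtype in their difference, against 12.7% below and 4.08% above 0 of all promoters. The falls were not called by edgeR without H3 shutoff replicate 3 or 4, and not every call of the difference was kept. These fits keep 1 culture of that strain and called fewer of all promoters, so that a lost call says little about the gene.

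Of the 5 bodies, SSA2 fell in the H3 shutoff strain, against 7.27% of 1609 bodies that fell and 5.78% that rose. SSA2 and HSP60 fell in wildtype, against 3.85% that fell and 1.43% that rose. The difference between the strains was above 0 in SSA2, against 9.07% below and 9.51% above 0 of all bodies. The median body change was -0.25 in the H3 shutoff strain and -0.35 in wildtype for the 5 genes, against -0.05 and -0.01 for all bodies.

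The same regions were counted for 16 other chaperone genes among the listed transcripts. Their promoters gave 2 falls in the H3 shutoff strain and 1 rise, against 10.9% that fell and 7.84% that rose of all promoters. With 16 genes, such counts lie near the shares over all promoters. JJJ1, a J protein that works with Hsp70, had 25 and 27 promoter read centers in the H3 shutoff strain at 3 hours, against 85 and 66 at 0 hours (-1.53 ± 0.36, edgeR adjusted p = 0.00057). CPR3, a mitochondrial cyclophilin, had 54 and 39 at 3 hours, against 98 and 88 at 0 hours (-1.01 ± 0.28, adjusted p = 0.00385). SCJ1, a J protein of the endoplasmic reticulum, went the other way, with 239 and 389 at 3 hours, against 173 and 181 at 0 hours (0.79 ± 0.21, edgeR adjusted p = 0.00204). The difference from wildtype was below 0 for CPR3 (-1.28) and LHS1 (-0.96), an Hsp70 relative of the endoplasmic reticulum. It was also below 0 for ZIM17 (-0.81), which keeps mitochondrial Hsp70 soluble, and above 0 for SCJ1 (0.99). Over all promoters, 12.7% were called below and 4.08% above 0. TMM scaling gave 0 below and 1 above among the 16. Among their bodies, CPR6 (-0.48) and HLJ1 (-0.77) fell and SSQ1 (0.27) rose in the H3 shutoff strain. Over all bodies 7.27% fell and 5.78% rose. The body difference was below 0 in HLJ1 (-0.93 ± 0.19, edgeR adjusted p = 0.0217), against 9.07% below and 9.51% above 0 of all bodies. In wildtype edgeR called 0 of the 16 promoters, against 1.44% that fell and 4.64% that rose of all promoters. It called 0 of the 16 bodies, against 3.85% that fell and 1.43% that rose of all bodies. At an unadjusted p under 0.05 there were 3 of each, and DESeq2 also called 0. The list was counted without a test of its own.

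The positions of the authors' calls were compared between 0 and 3 hours within each culture, by the study's test of the mean read center position of overlapping calls, with Bonferroni correction over the genome. The test covers counting error within a culture only. In the 5 genes, 17 of 63 nucleosomes were of altered position in H3 shutoff replicate 3 and 27 of 65 in replicate 4, that is 27.0% and 41.5%, against 37.1% and 41.1% of all nucleosomes compared. In wildtype B and C, 20 of 67 and 22 of 70 were altered, that is 29.9% and 31.4%, against 10.6% and 9.66%. The share in the chaperone genes was thus at or below that of the genome in the H3 shutoff strain and above it in both wildtype cultures. Without SSA1 and SSA2, the share was 24.4% and 30.2% of the nucleosomes of the other 3 genes in wildtype B and C. In SSA1 6 of 14 nucleosomes were altered in wildtype B, all of them from 656 bp on. The 0-hour centers of 4 of them lay between 598 and 1347 bp, where the bins of the 2 library sets were found, and those of the other 2, at 1472 and 1617 bp, lay beyond it. In HSP104 the counts were 7 of 15 and 6 of 16 in wildtype B and C.

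A nucleosome at 0 hours could be paired with the same 3-hour call as its neighbor, as in SSA2, so that a call that disappeared also counted as altered. When the calls had to overlap by at least 100 bp, the altered nucleosomes numbered 6 of 46 and 8 of 43 in H3 shutoff replicates 3 and 4, against 17.7% and 21.4% of all nucleosomes. In wildtype B and C they numbered 6 of 51 and 9 of 56, against 3.8% and 2.95%. With the 3-hour wildtype libraries exchanged between the cultures, the numbers were 21 and 19, against 11.4% and 9.34% of all nucleosomes.

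The spread of read centers within a call was measured by their SD, which is higher when a nucleosome is less sharply placed. Its mean over the calls of the 5 genes was 35.7 and 35.8 bp in H3 shutoff replicates 3 and 4 at 3 hours, against 32.7 and 33.4 bp at 0 hours. In wildtype B and C it was 30.4 and 31.7 bp at 3 hours, against 28.7 and 27.1 bp at 0 hours. Over all calls of the genome the means were 37.0 and 37.1 bp in the H3 shutoff strain at 3 hours, against 32.9 and 32.3 bp at 0 hours, and 28.4 and 28.6 bp in wildtype at 3 hours, against 27.7 and 27.7 bp at 0 hours. The change was 2.70 ± 0.45 bp in the H3 shutoff strain and 3.15 ± 2.11 bp in wildtype (SD, n = 2 cultures each). Permuting the 4 cultures between the strains gave an exact two-sided p = 1.0, but with 2 cultures against 2 it cannot go below 0.33 and says nothing about a difference.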

How the data were processed

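MNase-seq fragments and nucleosome calls were used from 2 H3 shutoff and 2 wildtype cultures at 3 and 0 hours. Per the labels and the study's methods, the authors aligned paired reads to sacCer1 with Bowtie 0.12.6, retained pairs spanning 100 to 200 bases, dropped those in the rDNA and sampled equally many pairs from each library. The deposited files give fragment starts and ends in bp, and, for nucleosomes called by the authors in each library, counts of read centers, positions, SDs and lengths in bp, and, as a fraction, how many read centers fall on the central base, which was not used. These counts carry no further normalization.

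Read centers are fragment midpoints. Transcript coordinates came from the list given with the study, with the strand from the systematic name. The list used here covers 6 chromosomes (1 and 10 to 14), so that shares over all promoters, bodies and starts do not cover the whole genome. The 385 listed on chromosome 10 were excluded after their starts were seen to be shifted against the fragments. The members and lists were chosen with earlier results of these data known. Gene symbols came from RefSeq names, which matched all 5 members and all 16 other chaperone genes.

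Windows reach 50 bp to each side of centers called by the authors' method on the 8 libraries pooled, promoters are the 300 bp upstream of a start, and bodies are the listed transcripts. Counts were tested with edgeR 4.0.16 (quasi-likelihood, R 4.3.3), with culture as a block, no scaling and Benjamini-Hochberg adjustment at 0.05. Windows were tested over the genome, and promoters and bodies over the listed transcripts off chromosome 10. Features tested had at least 80 read centers in all libraries together. Mean positions were compared, allowing unequal variances, between calls of more than 5 read centers overlapping by at least 30 bp, altered under a corrected p of 0.01. The block was used because each culture was split into both times. The deviations of cultures from their group mean had an r of 0.33 between times in the H3 shutoff strain and -0.0384 in wildtype, and 0.0738 and 0.26 with the stretches present in 4 libraries left out. An exchange of wildtype libraries between cultures was therefore among the alternatives. Wildtype replicates share a number in their labels, so their letters (B, C) stand for the cultures.

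All 5 members are named. Of the windows called in the H3 shutoff strain or in the difference between strains, the 2 with the largest change in the H3 shutoff strain per gene are given in full. Alternatives were TMM scaling, DESeq2 1.42.0, no filter, no block, fragments of 140 to 160 bp, 600 bp of promoter, stricter position settings and each culture left out. Scripts used Python 3.11.15, and the tests were checked on simulated data. The culture numbers limit the precision to 2 per strain.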

Additional observations from a re-analysis of the deposited data

Results flagged for a closer look

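The change in the H3 shutoff strain differed from that in wildtype in 11 windows and 3 regions of the chaperone genes, by edgeR's test of the difference itself with Benjamini-Hochberg adjustment. Values are log2 changes in the H3 shutoff strain minus those in wildtype, and 2 cultures stand behind each change. Around transcript starts the difference was below 0 in SSA1 at -53 bp (-2.56), in HSP60 at 3 bp (-2.35) and in HSP104 at -80, 111 and 264 bp (-1.39, -1.52 and -1.46). It was also below 0 farther upstream, at -475 bp of HSP60 (-2.70) and -524 bp of HSC82 (-1.03, adjusted p = 0.0494), and at 2426 bp of HSP104 (-1.35). It was above 0 at 450 bp of SSA2 (1.98) and at 2151 and 2671 bp of HSP104 (0.99 and 1.5). By region it was -1.46 in the SSA1 promoter, -1.05 in the HSP104 promoter and 0.49 in the SSA2 body.

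In the HSP104 window at 264 bp, H3 shutoff replicates 3 and 4 had 34 and 25 read centers at 3 hours, against 62 and 61 at 0 hours, and wildtype B and C had 56 and 100 at 3 hours, against 44 and 74 at 0 hours. At 2426 bp of HSP104 the H3 shutoff libraries had 37 and 30 at 3 hours, against 44 and 47 at 0 hours, and the wildtype libraries had 68 and 73 at 3 hours, against 29 and 47 at 0 hours. The wildtype change was there the larger of both. At 2151 bp of HSP104 the H3 shutoff libraries had 63 and 110 at 3 hours, against 53 and 74 at 0 hours, and the wildtype libraries had 36 and 54 at 3 hours, against 59 and 73 at 0 hours. At -524 bp of HSC82 the H3 shutoff libraries had 88 and 100 at 3 hours, against 174 and 171 at 0 hours, and the wildtype libraries had 183 and 177 at 3 hours, against 192 and 135 at 0 hours. This window lies in the end of RTP1, and its call was kept in 2 of 11 alternatives. The difference at 2151 bp of HSP104 was lost in 7 of 11 alternatives, among them the fits without H3 shutoff replicate 3 (1.13, edgeR adjusted p = 0.0674), replicate 4 (0.81, adjusted p = 0.301) and wildtype B (0.87, adjusted p = 0.097). That at 2426 bp was lost in 4 of 10, with TMM scaling (-0.96, edgeR adjusted p = 0.0852) and without H3 shutoff replicate 3 (-1.56, adjusted p = 0.0568), replicate 4 (-1.16, adjusted p = 0.176) or wildtype B (-1.08, adjusted p = 0.109).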

How the results depend on the processing

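No called window, promoter or body changed its direction under any alternative. Without the replicate block 6 named calls were lost, those of SSA1 at 468 bp in both strains, of the SSA1 promoter in the H3 shutoff strain, and of the difference at -524 bp of HSC82, at 2151 bp of HSP104 and in the HSP104 promoter. The counts of called chaperone windows in the H3 shutoff strain (14), in wildtype (6) and for their difference (11) were 1, 2 and 1 with DESeq2, which called 1158, 44 and 792 windows of the genome. With the stretches present in 4 libraries left out, an alternative added after seeing the data, they were 22, 11 and 13 of 61 tested. That fit called 30.6%, 4.56% and 25.4% of all windows, against 27.1%, 1.57% and 20.8% with these stretches kept. Without the replicate block the counts were 13, 5 and 9, and the same fit called 22.7%, 0.703% and 16.6% of all windows. With 1 culture left out they ranged from 3 to 24, from 6 to 14 and from 4 to 16. The 2 called promoters of the H3 shutoff strain numbered 0 with DESeq2 (46 of all 1594 promoters called). They numbered 1 without the replicate block (129 of 1594) and 1 with fragments of 140 to 160 bp (173 of 1488). With the 3-hour wildtype libraries exchanged they numbered 0 (17 of 1594), and with 600 bp upstream 1 (252 of 1614). Some fits with a culture left out also lost them. The 2 promoters called for the difference numbered 1 with TMM scaling (150 of 1594 called) and 0 with DESeq2 (2 of 1594). They numbered 1 without the replicate block (44 of 1594) and 0 with fragments of 140 to 160 bp (83 of 1488). The exchange called 0 of 1594 promoters, so that no gene could keep a call there. With 600 bp upstream they numbered 0 (225 of 1614), and some fits with a culture left out also lost them. The body called in the H3 shutoff strain was lost with DESeq2 (52 of 1609 bodies called). It was also lost with fragments of 140 to 160 bp (132 of 1602) and with the exchange (9 of 1609). The body called for the difference was lost with DESeq2 (53 of 1609) and with the exchange (90 of 1609). Some fits with a culture left out lost either call as well. Nucleosomes of altered position numbered 6 and 8 in H3 shutoff replicates 3 and 4 and 6 and 9 in wildtype B and C with an overlap of at least 100 bp. The change of the spread was 3.10 bp in both strains for calls of more than 20 read centers, and with 1 culture left out it was 2.38 to 3.02 bp in the H3 shutoff strain and 1.66 to 4.64 bp in wildtype. The cause of these moves was not tested. With 2 cultures per strain and a median of 42 to 58 read centers per window and library, small changes were not detectable at this depth.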
